A study of Homo sapiens with 6 samples.

Results

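The teneurins and contactins are 2 families of cell surface adhesion genes, followed here in Hep3B cells with and without RFX6 knockout. The 9 genes were taken by their symbols from the 16720 named rows of the deposited count table, namely TENM1, TENM2, TENM3 and TENM4, and CNTN1, CNTN3, CNTN4, CNTN5 and CNTN6. They were chosen by their counts in the same 2 groups, because TENM3 had fallen to 0 counts and CNTN6 had risen from almost none in the knockout cells. Hence the difference between the groups in these genes is given as a description and no test is drawn from it. CNTN2, the remaining contactin, was not on the list and had between 0 and 3 counts in every library.

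Hep3B is a long-established line of human hepatocellular carcinoma cells. The RNA of 3 control libraries (sgControl, wild-type genotype per the labels) and 3 libraries of cells with RFX6 knocked out (sgRFX6) was sequenced. RFX6 encodes a transcription factor of the regulatory factor X family. The study asked how its loss alters liver cancer cells. The knockout columns name the guide sg3. The control columns carry the name cas and no guide, and were taken as the sgControl samples, the only control group. Guides were delivered in the lentiviral vector lentiCRISPRv2 with puromycin selection, after which clones grown from single cells were picked. The labels do not say how many clones the libraries come from or whether replicates were separate cultures, so the error values measure the spread between these libraries, which may be technical, and a difference between clones cannot be told apart from an effect of the knockout.

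Teneurins are large single-pass membrane proteins that meet latrophilins (adhesion G protein-coupled receptors) and other teneurins across cell contacts, and are best known for guiding the choice of synaptic partners. FLRT proteins bind the same latrophilins. Contactins are members of the immunoglobulin superfamily that are held on the membrane by a lipid anchor and act through partners in the same or the facing membrane, among them contactin-associated proteins, receptor tyrosine phosphatases, amyloid precursor proteins and L1-type adhesion molecules. Both families are known mainly from the developing nervous system.

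The upstream sequences of TENM3 and CNTN6 are shown because these were the members with counts in one group and almost none in the other. They are the 250 bases before the transcript starts in RefSeq on GRCh38.p14, forward strand, in lower case because no motif of the search lies in them. TENM3 has 2 annotated windows and CNTN6 has 1. The second TENM3 window and the CNTN6 window lie inside the annotated gene body, which begins at 182143987 for TENM3 and at 1092576 for CNTN6.
TENM3, first start, chr4:182143713-182143962: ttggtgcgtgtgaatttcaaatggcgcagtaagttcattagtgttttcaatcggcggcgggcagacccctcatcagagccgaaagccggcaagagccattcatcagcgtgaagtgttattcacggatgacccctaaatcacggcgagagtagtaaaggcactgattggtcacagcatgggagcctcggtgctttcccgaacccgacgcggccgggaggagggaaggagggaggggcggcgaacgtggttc
TENM3, second start, chr4:182448766-182449015: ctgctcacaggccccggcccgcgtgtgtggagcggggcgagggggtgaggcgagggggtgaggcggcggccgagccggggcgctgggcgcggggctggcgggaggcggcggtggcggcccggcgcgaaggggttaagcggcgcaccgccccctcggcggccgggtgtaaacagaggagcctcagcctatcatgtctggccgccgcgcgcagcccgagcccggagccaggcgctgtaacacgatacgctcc
CNTN6, chr3:1092774-1093023: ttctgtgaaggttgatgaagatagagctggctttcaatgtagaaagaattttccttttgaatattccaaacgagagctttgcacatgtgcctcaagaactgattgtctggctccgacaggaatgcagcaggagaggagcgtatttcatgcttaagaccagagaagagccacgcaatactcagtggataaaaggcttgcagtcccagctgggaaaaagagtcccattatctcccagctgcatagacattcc
Over windows of 300 bases, from 250 before to 50 after the start, CNTN6 held 6 CG dinucleotides and the TENM3 windows 22 and 39, against a median of 14 over all 35116 windows. The GC content of these windows was 47.3% for CNTN6 and 55.0% and 75.7% for TENM3, with a median of 58.7% over all windows. All 9 genes matched by symbol, with 14 windows.

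RFX proteins bind the X-box, an inverted repeat whose half-site is GTTGCC or GTTACC. A half-site on either strand was present in 2 of the 14 windows (14.3%) and in 17.7% of all windows. The 2 matches are shown with 10 bases on each side, the half-site in capitals. Both read GTTGCC on the strand opposite to the gene.
TENM3, second start, chr4:182449013-182449038: tccagacccaGGCAACttggcagcgc
TENM1, chrX:125204275-125204300, on the gene's own strand: cggcggccacGGCAACatcagcccag
No half-site was found in the window of CNTN6 or in the first window of TENM3. The full X-box, here GTTNCC followed after 4 letters by GNAAC, occurred in 0.222% of all windows and, among these genes, in 1 window, the second of CNTN4, a gene at 3 counts or fewer in every library. The form with 3 letters between them, added after the values were seen, was in 0.834% of all windows and in none of the 14. These are matches of letters within the windows only.

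The libraries held between 16730374 and 25070770 counts, at which 3 counts correspond to 0.122 to 0.189 CPM (counts scaled to library size with edgeR's TMM factors), and 3 counts or fewer was taken as the floor. Within each group 1 library stood apart. Chi-square per degree of freedom over genes was 68.7 and 85.4 between sgControl library 2 and the others against 16.2 between those, and 94.3 and 117 between sgRFX6 library 3 and the others against 17.9 between those. The targeted gene RFX6 was counted 117, 144 and 170 times in sgControl and 69, 59 and 77 times in sgRFX6. Transcript counts do not measure the protein, and every knockout library lay below every control library, with means of 6.27 ± 0.931 and 3.54 ± 0.146 CPM (SD, n = 3 each), a log2 fold change of -0.82 (standard error, SE, 0.26). The two-sided exact permutation test gave p = 0.1, the smallest that 3 libraries against 3 allow, and edgeR's quasi-likelihood test an adjusted p of 0.142. Of the hepatocyte-derived markers, all 9 were above the floor in both groups.

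TENM3 carried almost all teneurin transcripts of the control cells and had none in the knockout cells. Its protein is a teneurin known for matching projections in the visual pathway and hippocampus. TENM3 (ENSG00000218336.8) lies on chromosome 4 of GRCh38 from 182143987 to 182803024 on the forward strand. It was counted 107, 80 and 183 times in sgControl libraries 1, 2 and 3, which is 5.16, 3.24 and 7.90 CPM (5.43 ± 2.34, SD, n = 3). In sgRFX6 it was counted 0, 0 and 0 times. The groups do not overlap. Set against the floor of 3 counts per library, TENM3 was at least 34.4-fold lower in sgRFX6, and this bound lay between 26.6 and 41.3 when each library was left out in turn. In bulk RNA, fewer cells with the transcript and less transcript per cell cannot be told apart.

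The control libraries varied widely in TENM3. Their coefficient of variation was 43.1%, against a median of 22.7% over 1262 genes with a control level within 1.5-fold of it, of which 83.7% varied less. The lowest of them, library 2 with 80 counts, was far above the floor and is the control library that stands apart.

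TENM1 was present at a low level in both groups. Teneurin-1 is the X-linked member of the family. The gene (ENSG00000009694.13) spans 124375903 to 124963817 on the reverse strand of chromosome X. It had 13, 18 and 6 counts in the control libraries and 7, 7 and 12 in the knockout libraries, and the groups overlap. The means were 0.538 ± 0.247 and 0.444 ± 0.0988 CPM (SD, n = 3 each), a log2 fold change of -0.27 (SE 0.50) that turned to 0.024 without sgControl library 2. The ratio of summed counts per depth was 0.830, with an exact 95% interval from 0.483 to 1.41 that covers counting error only, as do the other count intervals. The annotation of STAG2 overlaps that of TENM1, and since the strand setting of the counting is not given, reads in the shared stretch cannot be assigned. STAG2, which encodes a cohesin subunit, was counted 1887, 1284 and 1196 times in sgControl and 1511, 850 and 5649 times in sgRFX6. Among the 15422 rows matched by symbol to the annotation, no other gene overlaps one of the 9. Rows without a match have no position here and could not be checked.

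TENM2, on chromosome 5 (167284799 to 168264157), and TENM4, on chromosome 11 (78652831 to 79440948), encode the other teneurins and were at the floor in both groups. TENM2 had 1, 0 and 0 counts in the control libraries and 1, 1 and 0 in the knockout libraries. TENM4 had a single count, in sgControl library 1. A difference in either gene was not detectable at this depth.

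CNTN6 was at the floor in the control cells and was almost the only contactin transcript of the knockout cells. Contactin-6 is a neuronal contactin that has been described as a ligand of Notch receptors and as a partner of the adhesion molecule CHL1. The gene (ENSG00000134115.12) lies at 1092576 to 1404217 on the forward strand of chromosome 3. It had 1, 3 and 0 counts in sgControl, or 0.0482, 0.122 and 0 CPM (0.0566 ± 0.0612, SD, n = 3). In sgRFX6 it had 54, 47 and 86 counts, or 2.68, 2.95 and 3.91 CPM (3.18 ± 0.643, SD, n = 3). The lowest knockout library thus had 47 counts where the highest control library had 3.

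Summed over libraries, CNTN6 had 4 counts in the control libraries and 187 in the knockout libraries, a ratio per depth of 55.2 with an exact 95% counting interval from 21.2 to 205. The ratio rested on few control counts. It was 141 (25.1 to 5616) without sgControl library 2, which held 3 of the 4 counts, and 36.6 (14.1 to 136) without sgControl library 3, which held none. The log2 fold change from edgeR was 5.64 (SE 0.62). The coefficient of variation of CNTN6 over the knockout libraries was 20.2%, against a median of 27.7% over 957 genes of like level.

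CNTN1 was near the floor in the control cells and at 0 in the knockout cells. Contactin-1 forms the axonal side of the junctions that flank nodes of Ranvier, together with CNTNAP1. CNTN1, on chromosome 12 (40692442 to 41072418), had 5, 4 and 2 counts in sgControl (0.163 ± 0.0773 CPM, SD, n = 3) and 0 in each sgRFX6 library. The groups do not overlap, but the control mean is close to what 3 counts are worth, and the gene did not pass edgeR's filter on low counts.

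CNTN3, CNTN4 and CNTN5 were at the floor in both groups. Contactin-4 is a binding partner of amyloid precursor protein, and all 3 encode neuronal contactins. CNTN3 (chromosome 3, 74262568 to 74521140, reverse strand) had 1 count in all, in sgRFX6 library 1. CNTN4 (chromosome 3, 2098813 to 3057956) had 3 counts in sgControl library 2 and 1 in sgRFX6 library 2. CNTN5 (chromosome 11, 99020953 to 100358885) had 0, 1 and 2 counts in the control libraries and 2, 0 and 2 in the knockout libraries. None of these values separates the groups.

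**Figure D1:**
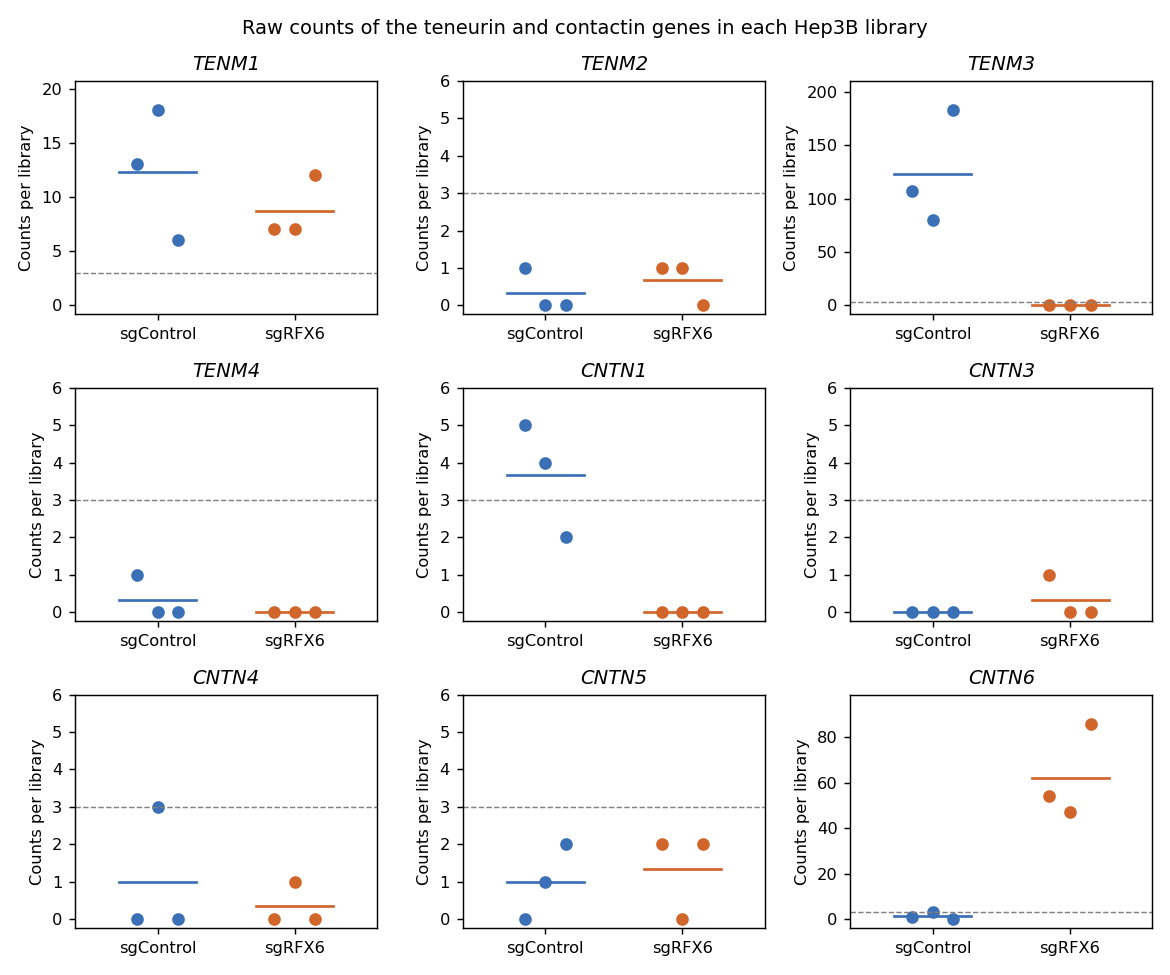
Raw counts (vertical axis, counts per library, scaled separately for each gene) of the 9 teneurin and contactin genes in the 3 sgControl and 3 sgRFX6 libraries, with a bar at each group mean and a dashed line at 3 counts. TENM3 is at 80 to 183 counts in the control libraries and 0 in the knockout libraries, CNTN6 at 0 to 3 and 47 to 86, TENM1 overlaps between groups, and the others have at most 5 counts.

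Of the 9 genes, 3 passed the filter on low counts (TENM1, TENM3 and CNTN6), 2 of these through 1 group alone. edgeR's quasi-likelihood test called TENM3 lower and CNTN6 higher in sgRFX6, where 3.74% of the 12839 tested genes were called, 1.92% higher and 1.81% lower. Since the genes were listed for this contrast, nothing is read from that count. The groups did not overlap in 3 of the 9 genes, TENM3, CNTN1 and CNTN6, against 20.9% of all named rows.

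By the floor of 3 counts, 5 genes were at it in both groups, TENM3 and CNTN1 in sgRFX6 only, CNTN6 in sgControl only, and TENM1 in neither. Among all named rows 11.5% were at the floor in both groups, 3.27% in sgRFX6 only and 2.07% in sgControl only. Rows with at least 80 counts in every control library, the lowest TENM3 value, and at the floor in every knockout library numbered 3 (0.0179%). Besides TENM3 these were COL3A1, a fibrillar collagen (478, 680 and 615 against 2, 0 and 0 counts), and SLC2A3, a glucose transporter (816, 681 and 1161 against 0, 0 and 2). TENM3 was the only row of the 3 at 0 in every knockout library (0.00598% of rows).
In the other direction, 2 rows (0.012%) were at the floor in every control library and at 47 counts or more, the lowest CNTN6 value, in every knockout library. They were CNTN6 and BTBD11, which had 1, 0 and 0 counts in the control libraries and 58, 55 and 48 in the knockout libraries. These counts place the 2 genes among the table's rows and were set by their own values.

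**Figure D2:**
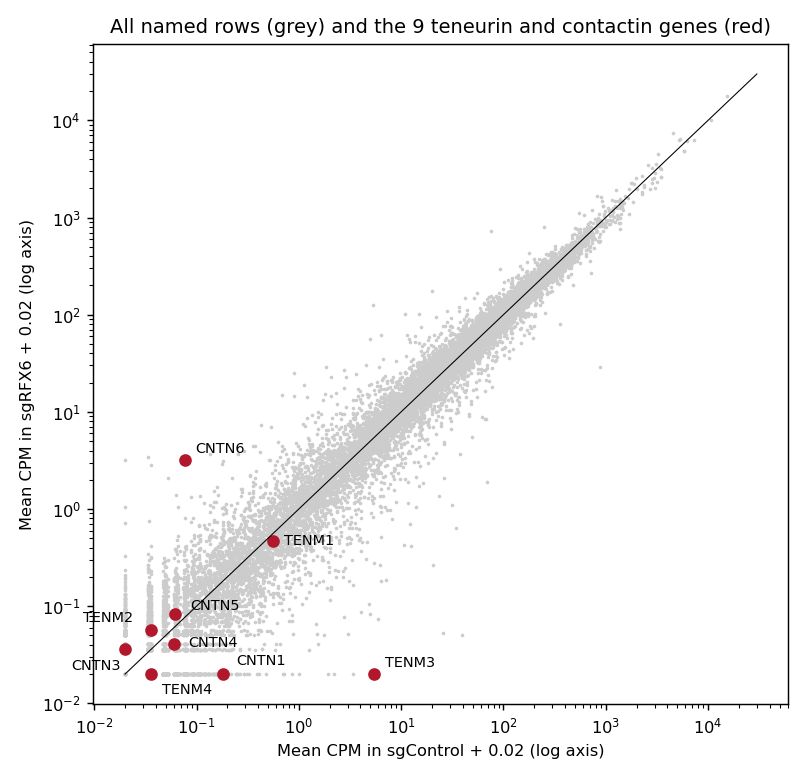
Mean CPM in sgControl (horizontal log axis) against mean CPM in sgRFX6 (vertical log axis), each with 0.02 added, for all 16720 named rows in grey and the 9 teneurin and contactin genes in red, with the line of equal levels. TENM3 lies on the lower edge at 0 CPM in sgRFX6, CNTN6 far above the line, TENM1 close to the line, and the others at low values in the lower left.

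The sum of each family followed 1 gene. Teneurin counts were 122, 98 and 189 in sgControl and 8, 8 and 12 in sgRFX6. TENM3 made up 87.7%, 81.6% and 96.8% of them in the control libraries and none in the knockout libraries, where TENM1 supplied 26 of the 28 counts. The summed teneurin level was 5.88, 3.97 and 8.16 CPM in sgControl and 0.397, 0.503 and 0.545 CPM in sgRFX6. What remained was of the size of TENM1 alone.
Contactin counts were 6, 11 and 4 in sgControl and 57, 48 and 88 in sgRFX6. CNTN6 made up 19.0% of the control sum and 96.9% of the knockout sum. The summed contactin level was 0.289, 0.446 and 0.173 CPM in sgControl and 2.83, 3.02 and 3.997 CPM in sgRFX6. Without CNTN6, the contactins of the list summed to 17 counts in the control libraries and 6 in the knockout libraries.

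**Figure D3:**
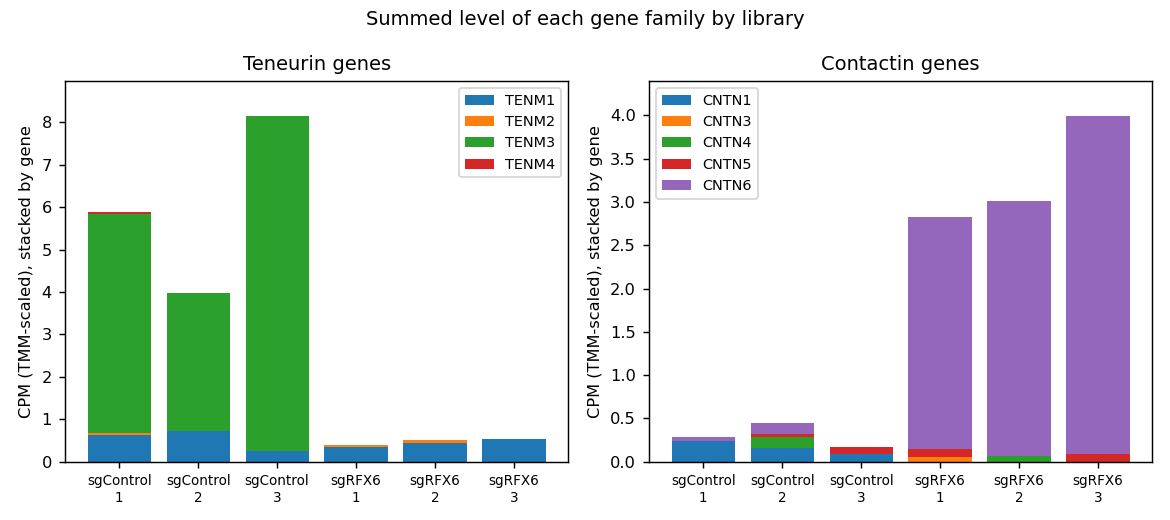
CPM of the listed teneurin genes (left) and contactin genes (right) stacked by gene (vertical axis) in each of the 6 libraries (horizontal axis). TENM3 fills most of each sgControl teneurin bar and is missing from the sgRFX6 bars, and CNTN6 fills most of each sgRFX6 contactin bar.

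Divided by exon length, which allows genes to be compared, the control level of TENM3 was 0.453 CPM per kb and the knockout level of CNTN6 was 0.569 CPM per kb. These lay above 29.8% and 31.3% of the 15422 genes with a length in the same group, so both were low transcripts even where they were present. TENM1 was at 0.0417 and 0.0344 CPM per kb. RFX6 itself was at 1.53 CPM per kb in sgControl and 0.866 in sgRFX6. In sgControl the order was TENM3, TENM1, CNTN1 and CNTN6, followed by the 5 genes at the floor in both groups at 0.00464 CPM per kb or less. CNTN1 and CNTN6 had control counts too low to be ordered. In sgRFX6 the order was CNTN6 and TENM1, with the remaining genes at the floor. With coding length in place of exon length, TENM3 was at 0.664 and CNTN6 at 0.949 CPM per kb in those groups.

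The 9 genes share great length, which the choice of genes did not use. Their annotated spans run from 258.6 kb for CNTN3 to 1338 kb for CNTN5, against a median of 27.1 kb over 19936 protein-coding genes, and each is longer than at least 94.9% of these. Of 128 tested genes that span 500 kb or more, 3 were called higher and 4 lower (5.47%), and their median log2 fold change was -0.04. Without TENM1 and TENM3 these figures were 3 higher and 3 lower of 126 (4.76%), with a median of -0.03. Over the 12001 tested genes with a span, 3.75% were called and the median was 0.02. The transcripts of TENM3 and CNTN6 contain 47.1% and 40.9% G and C, against a median of 48.6% over tested genes.

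The genes around TENM3 and CNTN6 were read in the same fit. The 20 nearest tested genes of TENM3, 10 on each side, had a median log2 fold change of 0.11 (from -0.997 to 0.83). edgeR's quasi-likelihood test called none of them, none had an unadjusted p under 0.05, DESeq2 called 0 and limma-voom with quality weights called 1. The nearest gene after it, DCTD, which encodes dCMP deaminase, begins 0.0870 Mb beyond its end. DCTD was counted 1632, 1696 and 2079 times in sgControl and 1744, 1449 and 1434 times in sgRFX6, a log2 fold change of 0.03 (SE 0.19). The nearest tested gene before it, AGA, a lysosomal enzyme, had a log2 fold change of 0.12 (SE 0.29).
CNTN6 lies near the end of chromosome 3. It had no tested gene before it, and the 10 nearest after it had a median log2 fold change of 0.20 (from -0.20 to 0.48). edgeR and DESeq2 called 0 of them, none had an unadjusted p under 0.05, and limma-voom with quality weights called 3. CNTN4, its neighbour on the list, begins 0.695 Mb after it and stayed at the floor. CHL1, the neighbour on the other side and a gene of the contactin partner list, has no row of that name in the count table.

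**Figure D4:**
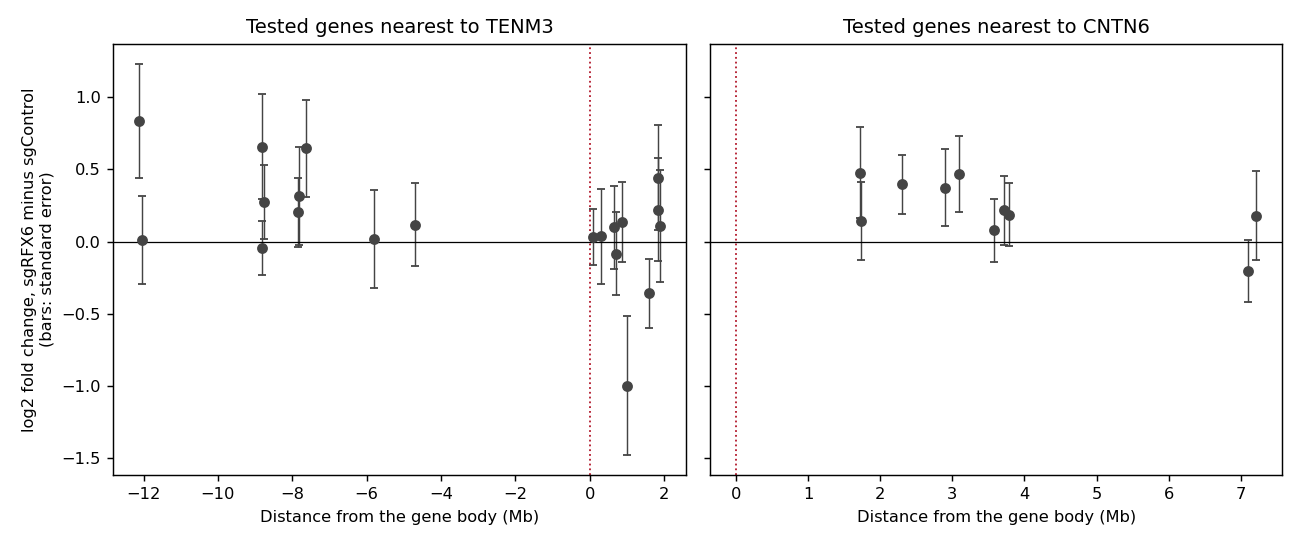
Log2 fold change of sgRFX6 over sgControl (vertical axis, bars are standard errors) of the nearest tested genes of TENM3 (left, 20 genes) and CNTN6 (right, 10 genes) by their distance from the gene body in Mb (horizontal axis). The dotted red line marks the gene, and the neighbours lie between -0.997 and 0.83 on the left and between -0.20 and 0.48 on the right.

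Of the teneurin partners, all 6 listed genes are in the table, 5 were tested, and 1 fell, FLRT2 (3.74% of all tested genes were called). Their median log2 fold change was -0.28, against 0.02 over all tested genes. FLRT2 encodes a membrane protein with leucine-rich repeats that binds latrophilins and the netrin receptors of the UNC5 family. It lies on chromosome 14 from 85530144 to 85654426. FLRT2 was counted 78, 58 and 74 times in sgControl and 10, 9 and 9 times in sgRFX6, so the groups are far apart. Its level was 3.10 ± 0.709 and 0.490 ± 0.0786 CPM (SD, n = 3 each), a log2 fold change of -2.66 (SE 0.37) with an adjusted p of 0.00584 from edgeR's quasi-likelihood test. As with TENM3, the 3 control libraries were the higher ones.
FLRT3, a close relative of FLRT2 with the same kind of partners, was counted 1351, 1311 and 1050 times in sgControl and 478, 338 and 1314 times in sgRFX6. Its level was 54.5 ± 9.96 and 34.9 ± 21.5 CPM (SD, n = 3 each), with a log2 fold change of -0.64 (SE 0.38, edgeR adjusted p = 0.492). sgRFX6 library 3 stood with the controls, and without it the value was -1.27 (edgeR adjusted p = 0.0156). Over 14 alternatives the adjusted p of FLRT3 lay between 0.00112 and 0.770.
ADGRL1, the latrophilin with the highest level here, had 88.0 ± 6.44 CPM in the control and 72.5 ± 13.6 CPM in the knockout libraries (SD, n = 3 each). Its log2 fold change was -0.28 (SE 0.19, edgeR adjusted p = 0.554), and the groups overlap. The remaining partners are outside the rule for named genes and complete the list. ADGRL3 had 26, 85 and 21 counts in the control libraries and 27, 8 and 63 in the knockout libraries, with no separation. FLRT1 had 23 to 25 counts and 22 to 30 counts. ADGRL2 had 5 to 7 and 2 to 6 counts and was not tested.

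Of 17 contactin partners, 13 are in the table, 10 were tested and none was called by edgeR. At an unadjusted p under 0.05 there was 1, DESeq2 called 1 and limma-voom with quality weights called 3. The median log2 fold change was -0.04, with 5 genes above and 5 below 0. APP, the amyloid precursor protein, had 862 ± 215 CPM in the control and 634 ± 42.4 CPM in the knockout libraries (SD, n = 3 each). Every knockout library was below every control library in APP (exact permutation p = 0.1, two-sided and the lowest that 3 against 3 can give), with a log2 fold change of -0.44 (SE 0.21, edgeR adjusted p = 0.364). APLP2, its relative, had 790 ± 159 and 974 ± 54.1 CPM, a log2 fold change of 0.30 (SE 0.19, edgeR adjusted p = 0.528), and the groups overlap.
NRCAM, an L1-type adhesion molecule, had 331 ± 40.4 CPM in the control and 261 ± 134 CPM in the knockout libraries (SD, n = 3 each), with a log2 fold change of -0.34 (SE 0.32, edgeR adjusted p = 0.705). In sgRFX6 it was counted 3986, 2712 and 9143 times. Without sgRFX6 library 3 the log2 fold change of NRCAM was -0.84 (edgeR adjusted p = 0.0278, with a range of 0.00512 to 0.906 over 14 alternatives).
L1CAM, named after its values were seen, was counted 252, 948 and 337 times in sgControl and 1324, 988 and 834 times in sgRFX6. The log2 fold change was 1.35 (SE 0.44, edgeR adjusted p = 0.156). sgControl library 2 overlaps the knockout libraries, and without it the value was 2.05 (edgeR adjusted p = 0.0212). Over 14 alternatives the adjusted p of L1CAM lay between 1.33e-05 and 0.403. CNTNAP1, the partner of contactin-1, was counted 233 to 491 times in sgControl and 248 to 332 times in sgRFX6. CNTNAP2 and CNTNAP5 were at the floor in both groups.

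A list of 21 other adhesion genes of the immunoglobulin superfamily is called neural adhesion genes here. Members such as MCAM and ALCAM are not confined to neurons. Of the 21, 13 are in the table, 9 were tested and 1 fell, MCAM (3.74% of all tested genes were called). At an unadjusted p under 0.05 there were 6 of the 9, against 2000 of all 12839 tested genes, DESeq2 called 3 and limma-voom with quality weights called 6. The median log2 fold change was 0.23, with 6 genes above and 3 below 0. The groups did not overlap in 6 of the 9, where this held for 23.1% of all tested genes. MCAM, an adhesion molecule also found on melanoma and vascular cells, was counted 766, 3069 and 901 times in sgControl and 250, 98 and 143 times in sgRFX6. Its level was 66.7 ± 49.9 and 8.36 ± 3.52 CPM (SD, n = 3 each), a log2 fold change of -2.99 (SE 0.53, edgeR adjusted p = 0.0174). The value was -2.18 (edgeR adjusted p = 0.0243) without sgControl library 2. The call was lost without sgRFX6 library 2 (-2.83, edgeR adjusted p = 0.0571), the 1 alternative of 14 in which this happened.
CADM1, a synaptic adhesion molecule named after its values were seen, had 12, 29 and 10 counts in the control libraries and 60, 30 and 82 in the knockout libraries. Its log2 fold change was 1.96 (SE 0.46) with an adjusted p of 0.0556 from edgeR, and between 0.000171 and 0.211 over 14 alternatives. ALCAM, an adhesion molecule of activated leukocytes and neurons, had a log2 fold change of 0.96 (edgeR adjusted p = 0.264), and that of NECTIN1 was 0.54 (edgeR adjusted p = 0.244). Without sgRFX6 library 3 these were 0.31 (adjusted p = 0.329) and 0.71 (edgeR adjusted p = 0.0453). NECTIN2 had a log2 fold change of -0.11 (edgeR adjusted p = 0.900), and its sign changed without sgControl library 2 (0.089) and without sgRFX6 library 3 (0.065). NECTIN3 and IGSF9, named after their values were seen, did not overlap between groups, with log2 fold changes of 1.44 (edgeR adjusted p = 0.153) and -1.26 (edgeR adjusted p = 0.180). NCAM1, SDK2 and CADM2 were at the floor in both groups.

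**Figure D5:**
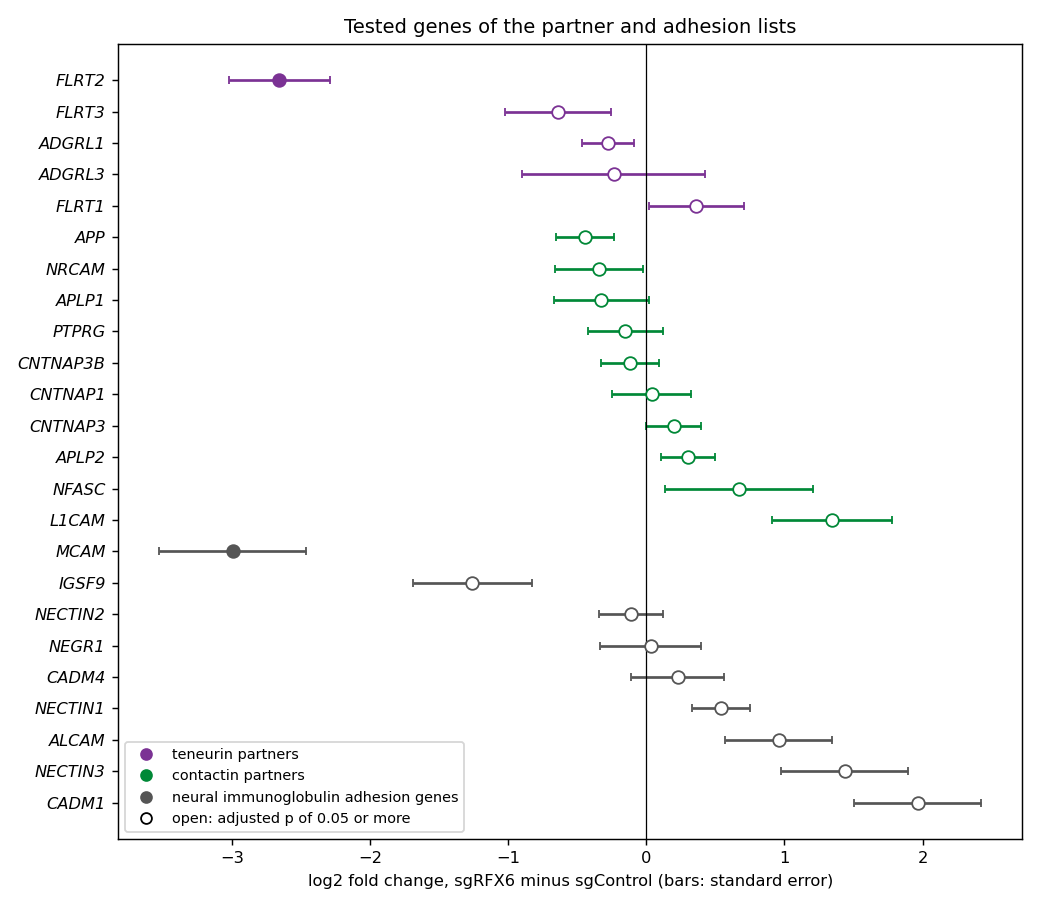
Log2 fold change of sgRFX6 over sgControl (horizontal axis, bars are standard errors) of the 24 tested genes of the 3 lists, coloured by list, with filled points for an adjusted p under 0.05 from edgeR. FLRT2 at -2.66 and MCAM at -2.99 are the 2 filled points, and L1CAM (1.35) and CADM1 (1.96) are open.

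The genes whose log2 CPM over the 6 libraries was most like that of TENM3 were PTPN14, PARP1, SP5, MMP1 and GPR161, with Pearson r from 0.995 to 0.997. The 6 libraries form 2 groups, so these values describe mainly the difference between them, and 146 tested genes had an r over 0.95. SP5, a transcription factor, was counted 113, 131 and 179 times in sgControl and 4, 5 and 5 times in sgRFX6. GPR161, an orphan receptor of the primary cilium, was counted 292, 298 and 372 times in sgControl and 18, 15 and 28 times in sgRFX6. PTPN14, a tyrosine phosphatase, had 880 to 1191 and 133 to 206 counts, and MMP1, an interstitial collagenase, had 329 to 431 and 32 to 39. PARP1, a DNA repair enzyme, had the same order of the control libraries and a smaller difference, a log2 fold change of -0.47.
For CNTN6 the most alike were KCNK1, PTPRR, HOXA3, the assembled transcript TCONS_00228136 and FAM84B, with Pearson r from 0.994 to 0.997, and 196 tested genes had an r over 0.95. TCONS_00228136, which the table does not pair with a gene, had 0, 1 and 0 counts in the control libraries and 58, 46 and 96 in the knockout libraries, close to the counts of CNTN6. This transcript has no position here, so an overlap with CNTN6 could not be checked. KCNK1, a potassium channel, had 402 to 510 and 585 to 796 counts, and PTPRR, a tyrosine phosphatase, 171 to 261 and 478 to 850. HOXA3, a homeobox factor, had 221 to 317 and 415 to 556 counts, and FAM84B 9 to 17 and 51 to 68.

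Markers of other cell types were read in the same libraries. Of 10 neuronal markers 7 are in the table. SYN1, SNAP25 and ELAVL3 were at the floor in both groups, 3 neuronal markers were tested and edgeR called 0 (1 at an unadjusted p under 0.05, 0 by DESeq2 and 1 by limma-voom). NEFL, a neurofilament gene named after its values were seen, was higher in every knockout library, as CNTN6 was, with 4, 5 and 13 counts against 33, 17 and 25 (log2 fold change 1.99, edgeR adjusted p = 0.0737). The remaining tested neuronal markers were RBFOX3 and MAP2. RBFOX3 went the other way without overlap, with 11, 23 and 15 counts against 10, 7 and 10 (log2 fold change -0.60, edgeR adjusted p = 0.562). MAP2 overlapped between groups, with a log2 fold change of 0.23 (edgeR adjusted p = 0.834). The summed neuronal level was 16.7 to 21.0 CPM in sgControl and 13.8 to 32.3 CPM in sgRFX6, most of it MAP2. Of the 7 stromal markers, 5 were tested and edgeR called 3, all lower in sgRFX6 as TENM3 and FLRT2 were, namely PDGFRA, COL1A1 and COL1A2 (3.74% of all tested genes were called). The other 2 were LUM, the most abundant, with a log2 fold change of 0.63 (edgeR adjusted p = 0.530) and -0.029 without sgRFX6 library 3, and DCN, with -0.44 (edgeR adjusted p = 0.758), and their groups overlap. PDGFRA, a growth factor receptor of mesenchymal cells, had 36, 33 and 69 counts in the control libraries and 2, 3 and 0 in the knockout libraries. COL1A1 and COL1A2, the chains of type I collagen, had log2 fold changes of -2.08 and -3.71 (adjusted p = 0.0108 and 0.00276 from edgeR). The edgeR calls of PDGFRA and COL1A1 were lost without sgRFX6 library 1 (adjusted p = 0.0592 and 0.0650), and that of COL1A1 also without sgControl library 3 (adjusted p = 0.0558). PDGFRA, PDGFRB and THY1 were at the floor in sgRFX6 and none of the 7 was in sgControl, while the summed stromal level was 27.7 to 34.6 CPM in sgControl and 21.4 to 56.2 CPM in sgRFX6, most of it LUM. The part of the stromal markers in the result for TENM3, and of the neuronal markers in that for CNTN6, was not tested.
Of 5 endothelial and blood markers 4 are in the table, with summed levels of 85.1 to 169 CPM in sgControl and 79.3 to 119 CPM in sgRFX6. Most of this sum was CD68, counted 1497, 3864 and 2028 times in sgControl and 1996, 1574 and 1344 times in sgRFX6. Of the 3 tested, edgeR and DESeq2 called 0, none had an unadjusted p under 0.05, and limma-voom called 1. PECAM1, named after its values were seen, was higher in every knockout library in CPM (log2 fold change 0.46, edgeR adjusted p = 0.401). VWF, also named after its values were seen, was not tested and tended the other way. Its knockout counts were 5, 1 and 1, against control counts of 10, 6 and 13, and in CPM its groups overlap. CD68 and PTPRC overlapped between groups, with log2 fold changes of -0.29 and -0.061 (edgeR adjusted p = 0.756 and 0.978). Among the hepatocyte-derived markers AFP rose by 2.82 on the log2 scale (edgeR adjusted p = 0.00254) and FGB had a log2 fold change of -2.45 (edgeR adjusted p = 0.00417). Of the 9 hepatocyte-derived markers, all tested, edgeR called these 2, 4 had an unadjusted p under 0.05, DESeq2 called 3 and limma-voom 6. APOB, TF and HNF4A, named after their values were seen, also did not overlap between groups, with log2 fold changes of -1.29, 1.05 and -0.27 (adjusted p = 0.116, 0.189 and 0.494 from edgeR). The remaining markers of this list, ALB, SERPINA1, APOA1 and TTR, overlapped between groups. Their log2 fold changes were 0.125, 0.121, 0.74 and 0.45 (adjusted p = 0.928, 0.899, 0.548 and 0.787 from edgeR). Without sgRFX6 library 3 the value of APOB was -1.91 (edgeR adjusted p = 0.00366, with a range of 1.39e-05 to 0.334 over 14 alternatives). The summed level of all 9 was 259 to 305 CPM in sgControl and 204 to 220 CPM in sgRFX6.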

How the data were processed

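RNA-seq of 3 sgControl and 3 sgRFX6 Hep3B libraries was read from 1 table. The authors deposited raw read counts of genes and assembled transcripts, with no normalisation. The labels' processing notes name the build GRCh38 (hg38). The aligner, counting program, annotation and strand setting are not given in the sources used here. Columns were matched to samples by name and replicate number. The 1 row that lacks a name, with 9.17e-05% of the counts or less, was not used.

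Genes were kept by filterByExpr of edgeR 4.0.16 (R 4.3.3, minimum count 10, minimum total 15), scaled by TMM and compared by the quasi-likelihood test without covariates, with Benjamini-Hochberg adjustment over 12839 genes and a threshold of 0.05 (common biological coefficient of variation 0.269), where n was 3 per group. Depth was 16730374 to 25070770 counts, and intervals are exact binomial ones at 95%. The SE of a log2 fold change was derived from the quasi-likelihood test, as its absolute value divided by the square root of the F statistic. Single genes were compared by a two-sided exact permutation test of CPM. The procedure was tested on simulated data, in which 200 genes changed by 2 on the log2 scale. edgeR recovered 96.5% of them and 2.03% of its calls were false. These figures were 94% and 3.59% for limma-voom, and 94.5% and 12.1% for DESeq2. The simulation included no library that stands apart. It drew the changed genes only from those above a minimum mean count, so these figures do not cover genes with as few counts as TENM1.

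The genes, lists and tests were chosen with earlier results of these data known. All 9 family genes, RFX6, called genes and the 3 highest genes of each list, and the 5 genes most like TENM3 and CNTN6 are named. The text marks some of the genes picked after their values were known, and other named genes outside this rule were not fixed in advance either. Among these, COL3A1, SLC2A3 and BTBD11 were found by their counts. PDGFRA, COL1A1, COL1A2, AFP and FGB were named because edgeR called them. Positions and lengths came from GENCODE 29, which matched 15422 of 16720 rows by symbol, and promoter windows from RefSeq (GRCh38.p14).

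Alternatives tried were DESeq2 1.42.0, limma-voom (limma 3.58.1) with quality weights, RLE factors, scaling by library size alone, no filter, a minimum count of 30, the replicate number as a block and each library left out. A correction for GC content (loess span 0.3) was added after the data were seen.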

Additional observations from a re-analysis of the deposited data

How the results depend on the processing

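TENM3 and CNTN6, the 2 genes of the list called between sgRFX6 and sgControl, were called in all 14 alternatives. They were chosen by their counts in these groups and passed the filter through 1 group alone, so this is no sign of stability. The small log2 fold change of TENM1 turned to 0.12 under limma-voom with quality weights and to between -0.57 and 0.024 with 1 library left out (above 0 without sgControl library 2), and TENM1 was not tested under the stricter filter. That of ADGRL3 turned to 0.11 under limma-voom and lay between -1.002 and 0.56 with 1 library left out (above 0 without sgControl library 2, 0.56, and without sgRFX6 library 2, 0.16). That of NECTIN2 turned to 0.19 under limma-voom and lay between -0.24 and 0.089 with 1 library left out (above 0 without sgControl library 2, 0.089, and without sgRFX6 library 3, 0.065). That of LUM lay between -0.029 (without sgRFX6 library 3) and 0.88 with 1 library left out, and that of DCN turned to 0.12 under limma-voom. The count of genes called, 480 over all tested genes, was 895 with DESeq2, 3998 with limma-voom, 1352 with the GC correction and between 212 and 718 with 1 library left out. Of the teneurin partners, 2 were called with limma-voom, 2 with the GC correction and 1 to 2 with 1 library left out. Of the contactin partners, 1 was called with DESeq2, 3 with limma-voom, 1 with the GC correction and 0 to 1 with 1 library left out. Of the other neural adhesion genes, 3 were called with DESeq2, 6 with limma-voom, 2 without a filter, 5 with the GC correction and 0 to 2 with 1 library left out. RFX6 was called with limma-voom (-0.96, adjusted p = 0.00274) and with the GC correction (-0.85, adjusted p = 0.0459 from edgeR), and its adjusted p lay between 0.00274 and 0.505 over 14 alternatives. The cause of these changes was not tested.
With the replicate number as a block, 648 genes, 2 of the listed genes, 1 teneurin partner, 1 contactin partner and 2 of the other neural adhesion genes were called. Libraries of the same number did not deviate together (correlations of -0.41, 0.17 and -0.09 for numbers 1, 2 and 3). No library correlated best with its own number, so the numbers were not taken as pairs. Depth limits the 5 genes at 3 counts or fewer in every library, for which no difference could be detected, and CNTN1.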
